A study of Homo sapiens with 2 samples.

Results

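The genes described here are the well-counted genes with a higher level in C28/I2 cells carrying an shRNA against FGF9 than in cells carrying the control shRNA. A gene was a member when it had at least 40 counts in 1 of the 2 libraries and its CPM (the count scaled to a common library total) in shFGF9-D1 was at least 2 times that in the control. Mitochondrially encoded genes, symbols of the numbered antisense kind such as HAS2-AS1, and 7 genes (LMNB1, MAFK, FGFR1, THBS2, WTAP, MMACHC and BEST1) were left out. The rule found 45 genes among 1498 eligible ones, in tables of 58220 genes. The members were chosen by their measured CPM ratio, so each ratio below is a description of these libraries and not a tested difference.

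C28/I2 is an immortalised human chondrocyte line, used as a culture model of cartilage cells. Cells were infected with lentivirus at a multiplicity of infection of 10, either with the control shRNA (labelled shvoid and wild type, called shControl here) or with shFGF9-D1 (labelled FGF9 knockdown), and total RNA was taken 72 hr later. The study asked what FGF9 does in chondrocytes during osteoarthritis. Each condition was 1 library, so the spread between cultures is unknown, and the effect of the shRNA and the chance variation of a culture cannot be told apart. All intervals are exact 95% intervals that cover counting error only.

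FGF9 is a secreted growth factor. It binds FGF receptors on the cell surface, which pass the signal through a chain of kinases that ends in ERK to the nucleus. In cartilage, FGF signals are known to act on the growth and maturation of chondrocytes. The genes described here are grouped by what their products do: control of chromatin and transcription, RNA and translation, the cilium, membrane traffic, and RNAs that code for no protein.

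The libraries were shallow, with 502774 counts in shFGF9-D1 and 519192 in shControl. FGF9 itself had 0 counts in both libraries, which allows up to 5.97 CPM in shFGF9-D1 and 5.78 CPM in shControl. These limits hold for FGF9 mRNA only if counts stem from the gene's own strand. The knockdown could not be checked in these counts. The study reported it for shFGF9-D1 in C28/I2 cells by qRT-PCR. Of 12 chondrocyte markers, 7 had a count and 2 reached 10 counts, CHAD with 16 and 17 and PRG4 with 12 and 11 (shFGF9-D1 first, here and below). SOX9 had 1 and 2 counts and COL2A1 had 0 in both. Genes that cultured cells usually express strongly were also low: ACTB had 31 and 47 counts, GAPDH 11 and 8, EEF1A1 20 and 22, and VIM 17 and 17. The sources used here do not give the strand setting used for counting. Counts listed for a gene could therefore stem from its own strand or from the other one, and the part of this in the values below was not tested.

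The 45 members were 3.0% of the eligible genes. The mirrored cut, a CPM ratio of 0.5 or less, was met by 55 genes (3.67%), so the higher genes were not the larger set. The members' counts summed to 4605 in shFGF9-D1 and 2095 in shControl, which was 0.916% and 0.404% of the library totals. Their CPM ratios ran from 2.0 to 3.10 with a median of 2.28, on the log2 scale 1.19, while the median over all eligible genes was 0.09. The members' counts in shFGF9-D1 had a median of 75, and 13 members had at least 100. The members were 18 of 384 genes (4.69%) with 40 to 59 counts in the higher library, 14 of 367 (3.81%) with 60 to 99, 10 of 338 (2.96%) with 100 or more but under 200, and 3 of 409 (0.733%) with 200 or more. The share of members therefore went down as counts went up.

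**Figure D1:**
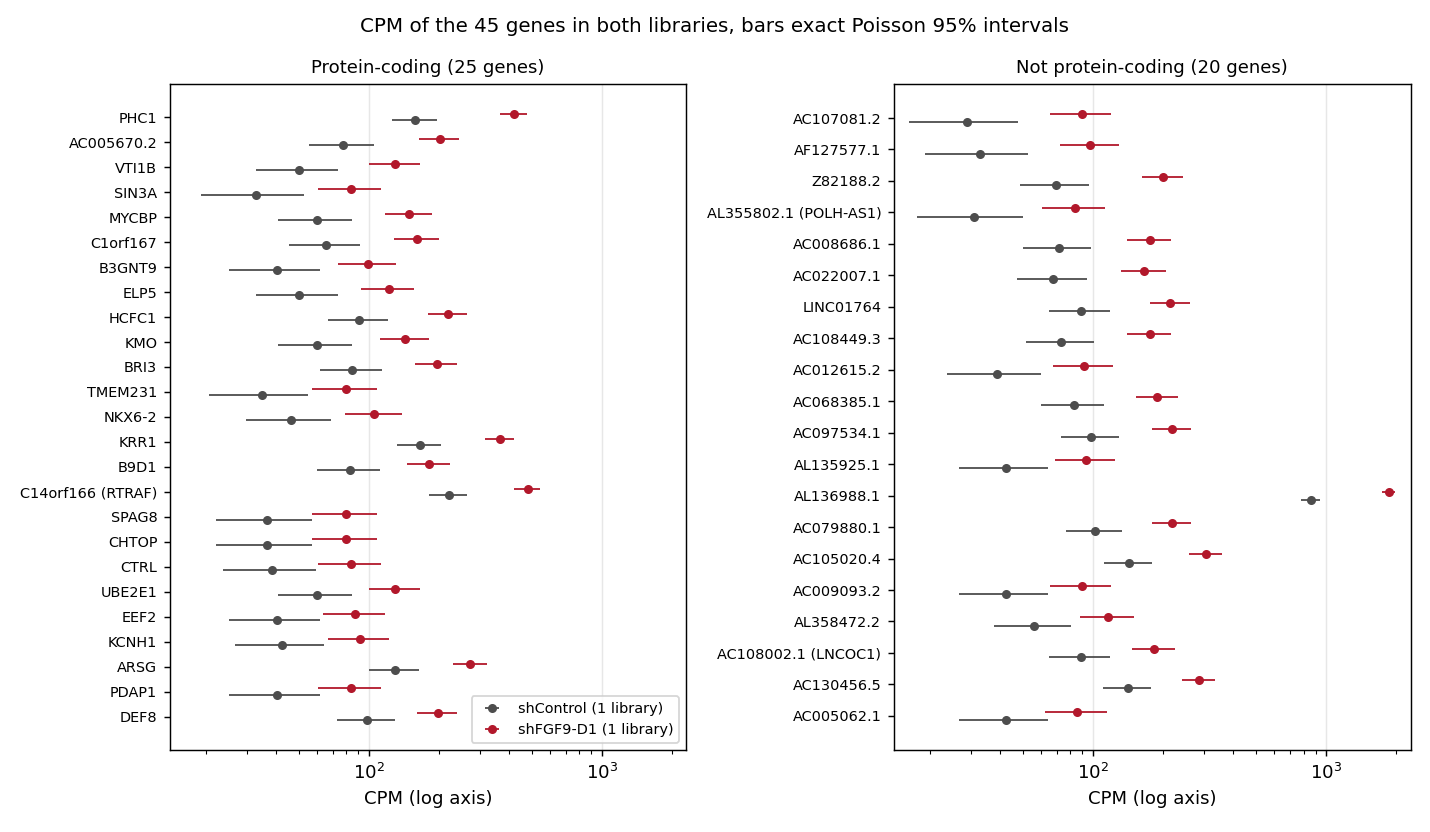
CPM (log axis) of the 45 genes in the shControl library (grey) and the shFGF9-D1 library (red), sorted by their ratio, with protein-coding genes on the left and the others on the right. Points are single libraries and bars are exact Poisson 95% intervals; AL136988.1 stands far to the right of all others at 857 and 1854 CPM.

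**Figure D2:**
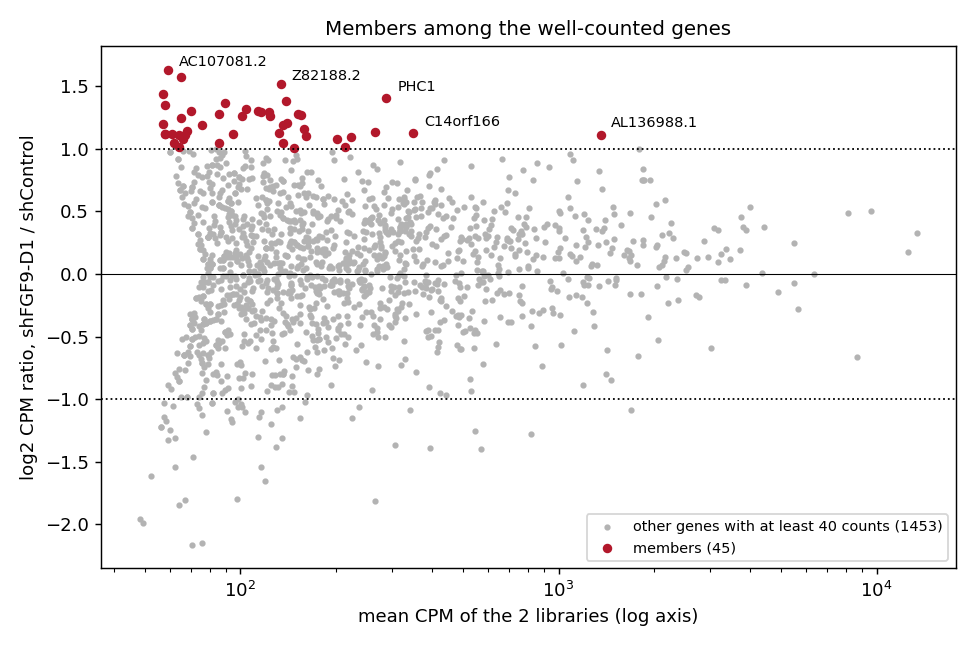
Log2 CPM ratio of shFGF9-D1 over shControl against the mean CPM (log axis) of the 1498 eligible genes, with the 45 members in red and dotted lines at the cut of the rule and its mirror. Members lie mostly at the low end of the CPM range, where the grey points also spread furthest above and below 0.

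Of the 45 members, 25 were protein-coding (55.6%, against 64.3% of the eligible genes in the annotation), 13 were antisense RNAs (28.9% against 25%) and 5 were long intergenic non-coding RNAs (11.1% against 3.35%). The remaining 2 were a processed pseudogene and an RNA that overlaps a gene in the sense direction. Members lay on 19 chromosomes, with 7 on chromosome 1 (15.6%, against 7.91% of the eligible genes) and 6 on chromosome 16 (13.3%, against 9.58%).

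Among regulators of chromatin and transcription there were 5 members. PHC1 is a Polyhomeotic subunit of Polycomb repressive complex 1, which keeps developmental genes silent (chr12:8913896-8941467, plus strand). PHC1 had 210 counts in shFGF9-D1 and 82 in shControl, or 418 and 158 CPM, a ratio of 2.64 (2.04 to 3.46). HCFC1 is a large nuclear scaffold that brings histone-modifying enzymes to promoters and is involved in the cell cycle (chrX:153947553-153971807, minus strand). HCFC1 had 110 and 47 counts, or 219 and 90.5 CPM, a ratio of 2.42 (1.70 to 3.48). SIN3A, the scaffold of a histone deacetylase complex that also binds HCFC1, had 42 and 17 counts, a ratio of 2.55 (1.42 to 4.78). MYCBP, which binds the amino-terminal part of MYC, had 75 and 31 counts, a ratio of 2.50. NKX6-2, a homeobox factor of the nervous system, had 53 and 24 counts, a ratio of 2.28. Of the 5, PHC1 had the most counts. Its interval comes from the counts that the rule used, so it gives no separate support.

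The partners of these regulators were described from whole lists, counted over genes with at least 10 counts in a library. A member in a list was at 2 or above by the rule that chose it, and the list median includes it. The SIN3 list was drawn up after the members were seen, so SIN3A in it is no separate observation. Among all 4000 such genes, 284 (7.10%) had a ratio of at least 2 and 391 (9.78%) a ratio of 0.5 or less. Of 33 Polycomb genes, 7 reached 10 counts, and PHC1 was the only 1 at a ratio of 2 or above, with 0 at 0.5 or below and a list median of -0.14 on the log2 scale. PCGF3, a ring-finger subunit of variant Polycomb complexes, had 170 and 193 counts. KDM2B, which brings a variant complex to CpG islands, had 191 and 130. Of 28 genes for HCFC1 and its chromatin partners, 8 reached 10 counts, of which HCFC1 and SIN3A were at 2 or above and 0 at 0.5 or below (median 0.46). SETD1A, a histone methyltransferase that binds HCFC1, had 158 and 114 counts, and GABPA, an ETS factor, had 140 and 109. Of 16 genes of the SIN3 complex, 4 reached 10 counts, with SIN3A at 2 or above, ING1 at 0.5 or below (7 and 15 counts) and a median of -0.56. RBBP4, a histone-binding subunit of both SIN3 and Polycomb complexes, had 76 and 125 counts, a ratio of 0.628 (0.466 to 0.842), and RBBP7 had 12 and 17.

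In RNA handling and translation there were also 5 members. RTRAF (C14orf166 in the tables), a subunit of the tRNA ligase complex, lies at chr14:51989475-52010691 on the plus strand. RTRAF had 241 counts in shFGF9-D1 and 114 in shControl, the most of any protein-coding member, a ratio of 2.18 (1.74 to 2.75). KRR1, a factor of the small subunit processome that builds the 40S ribosome, had 183 and 86 counts, a ratio of 2.2 (1.69 to 2.87). ELP5, a subunit of Elongator, which modifies wobble uridines of tRNAs, had 61 and 26 counts, a ratio of 2.42. EEF2, the elongation factor that moves the ribosome along the mRNA, had 44 and 21 counts, a ratio of 2.16 (1.26 to 3.83). CHTOP, an mRNA export factor, had 40 and 19 counts, a ratio of 2.17. EEF2 is usually among the strongly expressed genes of a growing cell, and its level here was only 35.1 and 20.8 FPKM.

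The partners of these members were described in the same way, against the 7.10% of all such genes at a ratio of 2 or above. Here too, members were at 2 or above by the rule. The Elongator and elongation factor lists were drawn up after the members were seen. ELP5 and EEF2 in them are therefore no separate observation. Of 48 genes of the small subunit processome, 10 reached 10 counts, with 2 at a ratio of 2 or above, KRR1 and IMP4, and 1, NOP14 (3 and 12 counts), at 0.5 or below (median -0.14). HEATR1, with the most counts in that list, had 556 and 766, and EMG1 had 498 and 290. Of the 6 Elongator genes, 3 reached 10 counts, with ELP5 at 2 or above, ELP4 at 36 and 40 counts and ELP2 at 10 and 7. Of 11 translation elongation factors, 5 reached 10 counts, with EEF2 at 2 or above and EIF5A at 16 and 26. Of 51 genes for mRNA splicing and processing, 19 reached 10 counts, with 0 at 2 or above and PRPF6 (3 and 10 counts) at 0.5 or below (median 0.17). HNRNPU, an RNA-binding nuclear scaffold protein, had 1150 and 706 counts, and U2AF2 had 158 and 98.

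Cilium genes gave 3 members. B9D1 and TMEM231 are parts of the MKS complex in the transition zone, the gate at the base of the primary cilium that controls which membrane proteins enter it. B9D1 had 91 and 43 counts, or 181 and 82.8 CPM, a ratio of 2.19 (1.5 to 3.22). TMEM231 had 40 and 18 counts, exactly at the count minimum, a ratio of 2.29 (1.29 to 4.25). SPAG8, known from the sperm tail, had 40 and 19 counts, a ratio of 2.17. In a list of 14 MKS and neighbouring genes drawn up after the members were known, 3 reached 10 counts, and the third, TCTN1, had 21 and 14 counts. The list was drawn up because of these members, so their presence in it is no separate observation.

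Membrane traffic, the lysosome and ubiquitin gave 5 members with ratios from 2.0 to 2.58. ARSG, a lysosomal sulfatase that acts on heparan sulfate, had 137 and 67 counts, a ratio of 2.11 (1.57 to 2.87). VTI1B, a SNARE protein of endosomes, had 65 and 26 counts, a ratio of 2.58 (1.62 to 4.24). BRI3, a small lysosomal membrane protein, had 98 and 44 counts, a ratio of 2.30. DEF8, a regulator of lysosome position, had 99 and 51 counts and the lowest ratio of all members, 2.0 (1.42 to 2.87). UBE2E1, a ubiquitin-conjugating enzyme, had 65 and 31 counts, a ratio of 2.17.

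The other 7 protein-coding members had no common role. KMO, the kynurenine monooxygenase of tryptophan breakdown, had 72 and 31 counts, a ratio of 2.40. B3GNT9, a glycosyltransferase, had 50 and 21, and KCNH1, a voltage-gated potassium channel, had 46 and 22. PDAP1, a protein that binds platelet-derived growth factor A, had 42 and 21 counts. CTRL, a chymotrypsin-like protease of the pancreas, had 42 and 20. C1orf167 had 81 and 34, and AC005670.2, annotated as protein-coding, had 101 and 40, the second highest ratio of the coding members at 2.61.

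RNAs that code for no protein made up 20 members and 2477 of the members' 4605 counts in shFGF9-D1 and 1140 of 2095 in shControl. This was the larger part in each library only because of 1 gene, AL136988.1. AL136988.1 (chr1:230280312-230281893, minus strand), an antisense RNA, had 932 and 445 counts, a ratio of 2.16 with the narrowest interval of all members (1.93 to 2.43). AC105020.4 had 153 and 74 counts, AC130456.5 had 143 and 73, and AC079880.1, the processed pseudogene, had 110 and 53. AC097534.1 had 110 and 51 counts, and LINC01764 had 108 and 46. The 4 highest ratios were in antisense RNAs with 42 to 100 counts in shFGF9-D1. AC107081.2 had 45 and 15 counts, a ratio of 3.10 (1.69 to 5.98). AF127577.1 had 49 and 17 (2.98), Z82188.2 had 100 and 36 (2.87), and AL355802.1, now named POLH-AS1, had 42 and 16 (2.71). Of these, Z82188.2 had the most counts, with an interval of 1.94 to 4.32.

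The other 10 RNAs of this kind had ratios from 2.02 to 2.46. AC008686.1 had 88 and 37 counts, AC022007.1 had 83 and 35, AC108449.3 had 88 and 38, and AC012615.2 had 46 and 20. AC068385.1 was at 95 and 43, AL135925.1 at 47 and 22, and AC009093.2 at 45 and 22. LNCOC1 (AC108002.1 in the tables) was at 92 and 46, AL358472.2 (now JTB-DT) at 58 and 29, and AC005062.1, the sense-overlapping RNA, at 43 and 22. Most of these RNAs carry only the name of the clone on which they were annotated.

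The cut itself separated genes with nearly equal values. DEF8, AC005062.1 and AC130456.5 were just inside it with ratios of 2.0, 2.02 and 2.02. NEIL2 (56 and 29 counts), ABHD16B (1196 and 620) and PURB (54 and 28) were just outside it with ratios of 1.99. IMP4, another factor of the small subunit processome, had a ratio of 3.10 but stopped at 39 counts, 1 below the minimum.

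FPKM, the authors' measure scaled by transcript length and library size, was the other value given for the same libraries. It was higher in shFGF9-D1 for 44 of the 45 members (97.8%), against 835 of the 1498 eligible genes (55.7%). Since FPKM comes from the same reads, it is no independent measure. An FPKM ratio of at least 2 held for 32 members (71.1%), against 50 of the 1498 eligible genes (3.34%). On the log2(FPKM + 1) scale the members' median difference was 1.16, against 0.097 for the eligible genes. PDAP1 was the exception, with 26.4 FPKM in shFGF9-D1 and 41.9 in shControl, a difference of -0.65 on that scale against a count ratio of 2.07. RTRAF had 141 and 89.0 FPKM, an FPKM ratio of 1.59, which lay below the interval of its count ratio. CTRL had 368 and 269 FPKM, a ratio of 1.37. For PDAP1, RTRAF and CTRL the size of the difference, or its direction, therefore depended on the unit. By length-scaled level, AL136988.1 was highest in shFGF9-D1 with 1505 FPKM (696 in shControl), followed by AC130456.5 with 1012 (541), LINC01764 with 913 (425) and AC097534.1 with 895 (453). KCNH1 was lowest with 11.8 and 5.42 FPKM, then SIN3A with 17.6 and 6.04, and HCFC1 with 21.4 and 8.25.

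**Figure D3:**
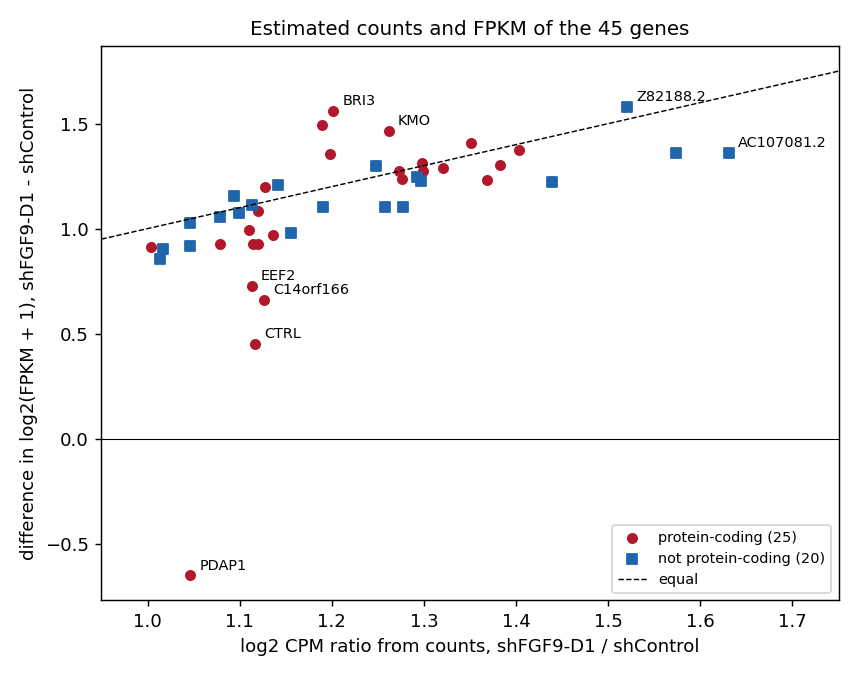
Difference in log2(FPKM + 1) against the log2 CPM ratio from counts for the 45 genes, shFGF9-D1 relative to shControl, with protein-coding genes as red circles and the others as blue squares; the dashed line marks equal values. PDAP1 is the only gene below 0, and CTRL, C14orf166 (RTRAF) and EEF2 lie well under the dashed line.

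Most members overlapped exons of an opposite-strand gene, a feature the rule did not use. This held for 37 of the 45 (82.2%), a slightly smaller share than the 1325 of 1492 (88.8%) among eligible genes in the annotation. For each member, the opposite-strand gene with the most shared bases was taken as its partner. Of the 37 members, 16 pointed towards the partner (convergent), 12 lay within it (32.4%), 6 pointed away from it and 3 enclosed it. Among the eligible genes with a partner, 318 of 1325 (24%) lay within it, and the other arrangements were not compared. Of the exon bases shared with the 27 protein-coding partners, 74.3% were in the partner's 3′ untranslated exons, compared with 62.5% for the eligible genes.

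The members' partners mostly had few counts. Counts were given for 36 partners, which summed to 792 in shFGF9-D1 and 799 in shControl, while their members summed to 4001 and 1820. Of the 36 partners, 21 had under 10 counts in both libraries (58.3%, against 43.3% for the partners of eligible genes). The 15 partners with at least 10 counts had CPM ratios from 0.452 to 1.89 with a median of 1.11. The partners of all eligible genes with at least 10 counts had a median ratio of 1.08, and 30 of those 749 (4.01%) reached a ratio of 2. Of the members' 15 partners 0 reached it, a number too small to set apart from that share. AL162258.2, opposite CHTOP, was at 0.5 or below, with 7 and 16 counts.

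AL136988.1, the member with the most counts, shows the arrangement. All exon bases of AL136988.1 lay within the 3′ untranslated exon of GALNT2, which codes for an enzyme that starts O-glycan chains, over 1029 shared bases. AL136988.1 had 932 and 445 counts, and GALNT2 had 4 and 1. AC130456.5 likewise lay wholly within the 3′ untranslated exon of GDE1, a phosphodiesterase gene with 2 and 0 counts. In all, 7 of 12 antisense members with a partner had all their exon bases inside it, which was not compared with the eligible genes. AC105020.4 was wholly inside coding exon sequence of CSPG4, a chondroitin sulfate proteoglycan gene of mesenchymal and cartilage cells, over 563 bases. AC105020.4 had 153 and 74 counts, and CSPG4 had 45 and 43.

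Several coding members met the partner tail to tail, an arrangement not compared with the eligible genes. PHC1 shared 1105 bases, all in its own 3′ untranslated exon, with M6PR, a receptor that sorts enzymes to lysosomes, which had 21 and 23 counts. RTRAF shared 1915 bases with NID2, a basement membrane gene, which had 14 and 13. KRR1 shared 1516 bases with GLIPR1, which had 162 and 237 counts, a ratio of 0.706 (0.574 to 0.866). In the KRR1 pair the member was higher in shFGF9-D1 and the partner lower, and the sum of the 2 genes was 345 and 323. ARG2, an arginase opposite VTI1B, had 117 and 125 counts over 904 shared bases, more than VTI1B itself. C16orf70, opposite B3GNT9 over 435 bases, had 96 and 61 counts, a ratio of 1.63 (1.17 to 2.28), in the same direction as its member. WIPI1, opposite ARSG, had 18 and 16 counts, and AC096636.1, within exon sequence of KCNH1, had 117 and 87.

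Without an opposite-strand exon there were 8 members: HCFC1, UBE2E1, EEF2, TMEM231, DEF8, AC005670.2, AC009093.2 and POLH-AS1. Their ratios ran from 2.0 to 2.71. Reads could also be divided with a gene on the same strand, which held for 11 members (24.4%, against 15.9%). CTRL shared 2374 bases with AC040162.1, which had 64 and 102 counts. The sum over that pair was 106 and 122 counts, a ratio of 0.897, so the higher count of CTRL was not seen in the locus as a whole. For MYCBP and the read-through gene GJA9-MYCBP the sum was 83 and 33, a ratio of 2.60. For AC005670.2 and LRRC37A17P it was 156 and 78, a ratio of 2.07, and for AC022007.1 and EMC3 120 and 64, a ratio of 1.94.

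**Figure D4:**
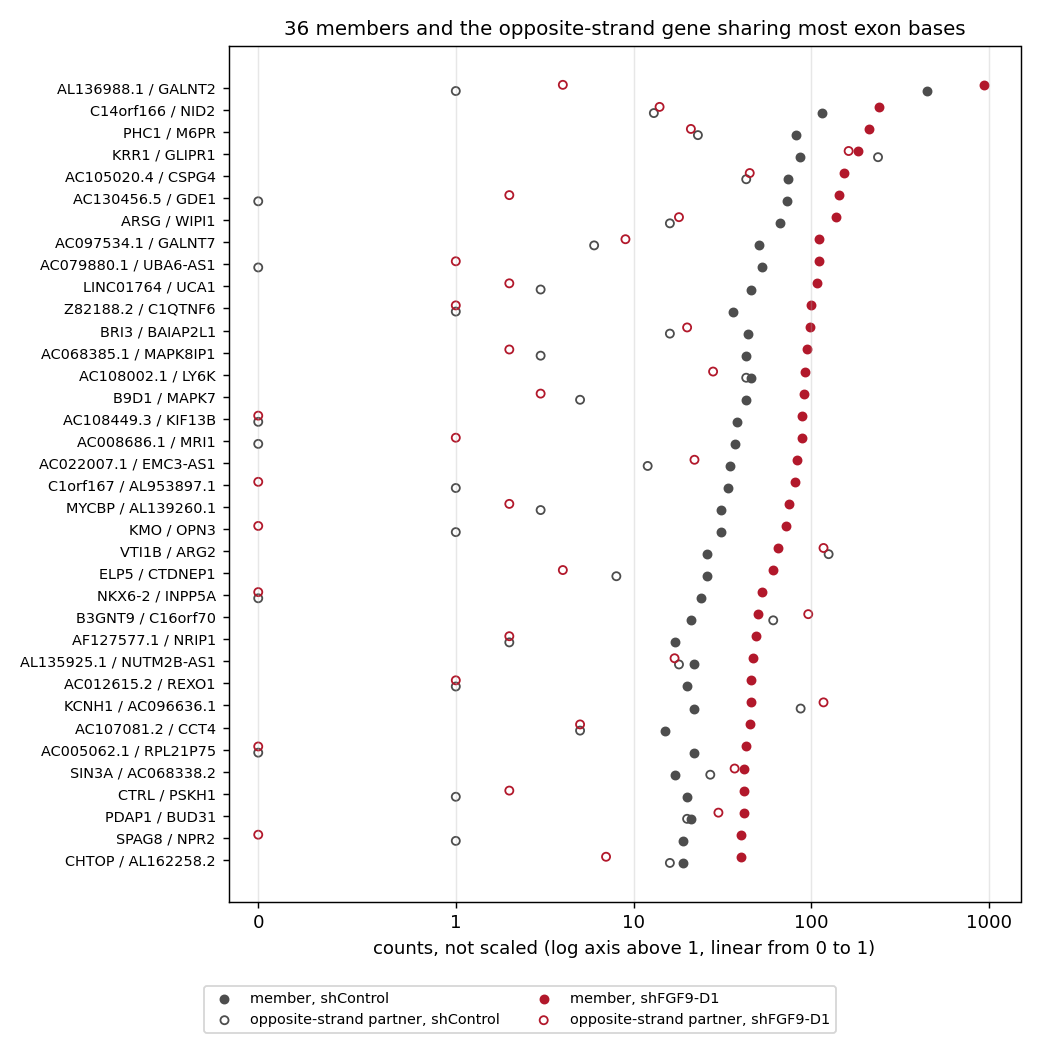
Counts, not scaled (log axis above 1, linear from 0 to 1), of 36 members (filled) and of the opposite-strand gene with which each shares most exon bases (open), in shControl (grey) and shFGF9-D1 (red). Filled red points stand to the right of filled grey ones by the rule, while the open points show no such order, and for 21 partners both are under 10 counts.

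The table of RefSeq promoters used here (GRCh38.p14) matched 19 of the 45 members, as 27 windows from 250 bases before to 50 after a start. Below are stretches of 5 windows, shown because PHC1, KRR1 and RTRAF have the most counts of the coding members, TMEM231 has no opposite-strand exon, and EEF2 holds the core of the antioxidant response element, the site of the redox factor NRF2 that the study followed. Each is written 5′ to 3′ on the strand of the gene and stops before the annotated exon. Capitals mark matches to the GC box (GGGCGG), to the CCAAT box (CCAAT), to the ETS motif (CCGGAAG), to the TATA box (TATAAA) and to the antioxidant response element core (TGACNNNGC) on either strand.
PHC1 chr12:8914329-8914508 (+ strand): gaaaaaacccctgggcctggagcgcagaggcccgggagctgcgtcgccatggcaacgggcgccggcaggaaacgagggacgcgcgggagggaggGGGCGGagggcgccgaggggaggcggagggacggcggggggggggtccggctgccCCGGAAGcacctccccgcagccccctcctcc
KRR1 chr12:75511637-75511816 (- strand): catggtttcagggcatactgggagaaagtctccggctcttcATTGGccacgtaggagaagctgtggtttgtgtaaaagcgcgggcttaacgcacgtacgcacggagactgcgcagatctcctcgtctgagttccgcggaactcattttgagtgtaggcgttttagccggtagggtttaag
RTRAF chr14:51989296-51989474 (+ strand): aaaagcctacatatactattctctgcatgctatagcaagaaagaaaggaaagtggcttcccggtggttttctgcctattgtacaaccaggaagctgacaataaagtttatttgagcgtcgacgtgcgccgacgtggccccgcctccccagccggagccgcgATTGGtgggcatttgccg
TMEM231 chr16:75556287-75556466 (- strand): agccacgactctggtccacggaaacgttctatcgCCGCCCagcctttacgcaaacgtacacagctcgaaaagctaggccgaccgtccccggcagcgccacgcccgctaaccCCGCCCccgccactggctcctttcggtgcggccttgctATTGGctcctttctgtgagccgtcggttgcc
EEF2 chr19:3985470-3985649 (- strand): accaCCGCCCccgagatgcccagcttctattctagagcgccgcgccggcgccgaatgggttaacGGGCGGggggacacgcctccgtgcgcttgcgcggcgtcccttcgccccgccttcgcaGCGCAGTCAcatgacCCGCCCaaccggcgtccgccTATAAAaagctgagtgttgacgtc

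The PHC1 stretch lies before the second of its RefSeq starts, inside the annotated gene but outside its exons. A GC box was in 74.1% of the 27 member windows, against 65.8% of 1276 windows of eligible genes and 45% of all 35116. The ETS motif was in 29.6%, 16.9% and 10.3%, and the CCAAT box in 37.0%, 34.1% and 34.6%. The antioxidant response element core was in 11.1% (3 of the 27 windows, those of B9D1, BRI3 and EEF2), 14.7% and 13.3%. The CRE (TGACGTCA), bound by CREB, was in 11.1% (EEF2 and ELP5), 2.82% and 1.85%, and the TATA box in 18.5%, 5.49% and 11.5%. The AP-1 site (TGANTCA) was in 0 of the 27, against 4.94% and 7.71%, and the YY1 motif (AAGATGGC) in 0, against 5.09% and 2.89%. A core shared by ZNF143 and THAP11 (TACANNTCC), factors that work with HCFC1, was in 1 window, that of KRR1 (3.70%, against 5.17% and 3.84%). With 27 windows a share moves by several percentage points for each window, and a match is a run of letters and not a bound site. The 27 windows came from 19 genes, so some genes were counted more than once. The GC box was in 20 windows of 14 genes, and the CRE in 3 windows of 2 genes.

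The lists closest to the question of the study had few genes that could be members. At least 40 counts were reached by 3 genes of FGF and ERK signalling, 2 redox genes, 1 gene of DNA replication and mitosis, and 0 senescence or chondrocyte genes. None of these was a member, which at 3.0% of all eligible genes says nothing about the lists. The rule left out by name LMNB1 and FGFR1, the latter 1 of the 3 FGF and ERK genes. Neither met both the count minimum and the ratio cut. Of 46 genes of FGF and ERK signalling, 7 reached 10 counts, with FGF2 (14 and 4 counts) at a ratio of 2 or above and 0 at 0.5 or below. MAP2K1, the MEK1 gene, had 30 and 51 counts. Of 31 redox genes and NRF2 targets, 4 reached 10 counts and 0 were at 2 or above or at 0.5 or below (median -0.38). SOD2, the mitochondrial superoxide dismutase, had 74 and 106 counts, and PRDX2, a peroxiredoxin, had 40 and 30. Of 30 senescence genes, 5 reached 10 counts, with LMNB1 (34 and 14 counts) at 2 or above and IGFBP7 (3 and 10) at 0.5 or below (median -0.24). CDKN2A, the p16 locus, had 23 and 28. Of 43 genes of DNA replication and mitosis, 11 reached 10 counts, with PCNA (16 and 8 counts) at 2 or above (median 0.05), and CDK4 was at 55 and 51 and MKI67 at 25 and 31. Of 22 chondrocyte genes, 3 reached 10 counts and none of these reached a ratio of 2 or 0.5 (median -0.04). CHAD, chondroadherin of the cartilage matrix, had 16 and 17 counts, and MATN1 had 12 and 16.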

How the data were processed

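Total RNA of C28/I2 cells with control shRNA or shFGF9-D1 was sequenced from SureSelect strand-specific libraries, 1 for each condition. The submitters' processing notes name HISAT2, Cuffdiff, bcl2fastq 2.1.7 and Cufflinks 2.2.1, and GRCh38.p14 as the genome. How strand was set in the counting is not stated in the sources used here. From each library the authors deposited estimated counts, not scaled between libraries, and FPKM, scaled by transcript length and library size.

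For CPM, the rounded counts were divided by their column sum. A floor of 3 counts limits a count of 0. The CPM of a library has an exact Poisson 95% interval and a ratio an exact Clopper-Pearson 95% interval (scipy 1.17.1). Since members were chosen by their ratio, these intervals describe counting error only and do not correct for that choice. FPKM differences used a pseudocount of 1. There were no replicates, so no test between conditions was made. The rule and the intervals were tested on simulated Poisson counts without variation between cultures, so that test says nothing about such variation.

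Gene type, strand and shared exon bases came from GENCODE release 29, to which 57882 of 58220 identifiers matched (all 45 members), and at least 1 shared base counted as an overlap. Gene lists were described by genes with at least 10 counts. Members and lists were chosen with earlier results of these data known, and 4 lists (MKS complex, Elongator, SIN3 complex, elongation factors), the roles and the ZNF143 motif were added after the members were seen. The naming rule took the members with at least 100 counts in shFGF9-D1, the 15 highest ratios, those nearest the threshold, those in a list, their opposite-strand partners and the 2 non-members with the most counts in each of the 9 lists written earlier. A gene of the FGF and ERK list that this rule takes is not reported here, nor is the median of that list. Other genes, including the remaining members, were named after their values were seen. Alternatives were TMM (edgeR 4.0.16) and DESeq2 1.42.0 size factors, sums without mitochondrially encoded genes, and other minimums and cuts.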

Additional observations from a re-analysis of the deposited data

How the results depend on the processing

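With 1 library per condition, leaving out a replicate was not possible. No paired analysis was possible because each condition had 1 library and the result comes from no test. The number of genes that met the rule was 56 with TMM (all 45 members and 11 others), 42 with DESeq2 size factors and 39 without mitochondrially encoded genes, the last 2 being members only. It moved to 4674 with a minimum of 1 count, 104 with 20 counts and 13 with 100 counts, and to 91 at a CPM ratio of 1.8 and 25 at 2.2. The members' median log2 ratio was 1.12 to 1.22 under the 3 scalings, 1.16 by FPKM and 1.14 for those with at least 100 counts. The scalings shift all genes alike, by 0.04, -0.05 and -0.07 on the log2 scale, so they could not turn the direction of a member. By FPKM, PDAP1 reversed, at -0.65 with a pseudocount of 1 and -0.67 with 0.1, and RTRAF moved to 0.66. The members with a shared opposite-strand exon were 33 with a minimum of 200 bases. Depth limits all of this: a count of 40 has a wide interval, and 18 members had under 60 counts.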
